A study of Homo sapiens with 6 samples.

Results

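The cytosolic ribosomal protein genes were taken by symbol from the deposited gene tables: numbered RPL and RPS symbols with at most a short suffix, RPLP0, RPLP1, RPLP2 and RPSA, with RPS4Y1 left out. This rule found 84 of 25680 gene symbols, 52 of the large subunit and 32 of the small subunit. The rule itself used no measured value, but it was chosen with earlier results of these data known. The study measured RNA in U87, a human glioblastoma cell line labelled wild type, after every culture had been given the rhodamine-tagged cyclic peptide EPP6. The dose was 500 nM for 1 hour at 37C. Cells were then sorted by rhodamine fluorescence, so that the high-uptake group is the brightest 30% and the low-uptake group the dimmest 30%. Each group has 3 libraries, numbered 2, 3 and 4. No library of cells without peptide is among those analysed here, and the labels do not say whether replicates were separate cultures; p-values here therefore reflect only how much these libraries vary. The series' stated subject is the proteins involved in taking up cyclic peptides.

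Cytosolic ribosomes are built from ribosomal RNA and from ribosomal proteins that join the large or the small subunit in roughly fixed proportion. Messenger RNAs of ribosomal proteins are abundant in growing cells, and many begin with a cytosine and an unbroken pyrimidine run, the 5′ terminal oligopyrimidine tract, through which their translation is tied to mTOR signalling. Some of these genes have close paralogues that can take the place of the usual protein, and many have processed pseudogenes that resemble their mature transcripts.

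The RefSeq start sites of most genes on which the results turn show how the members differ in the bases at the annotated start. RPL23 and RPL37, called lower in high-uptake cells as described below, had no entry in the RefSeq promoter table and are not shown. Each window gives 15 bases upstream of the annotated start and the first 15 bases of the transcript, on the gene's strand in GRCh38.p14, and capitals mark the unbroken run of C and T from the first transcribed base. The first 8 genes below were called lower in high-uptake cells, and the last 4 are shown for contrast, as the paralogue with the opposite sign, the most abundant member, the S6 kinase substrate and the member with the shortest protein.
RPS29 (chr14:49598696-49598725, minus strand): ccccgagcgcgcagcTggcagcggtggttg
RPS27 (chr1:153990747-153990776, plus strand): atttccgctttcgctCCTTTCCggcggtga
RPL9 (chr4:39458908-39458937, minus strand): gtacgtaatgacgacagacgttctttcttt
RPL34 (chr4:108620561-108620590, plus strand): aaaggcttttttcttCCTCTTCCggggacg
RPL26L1 (chr5:172958714-172958743, plus strand): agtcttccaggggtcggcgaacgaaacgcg
RPS14 (chr5:150449725-150449754, minus strand): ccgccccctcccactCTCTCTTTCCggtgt
RPS23 (chr5:82278340-82278369, minus strand): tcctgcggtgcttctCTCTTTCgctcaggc
RPS27A (chr2:55231888-55231917, plus strand): taaggagtgacacacaagacccagactctt
RPS27L (chr15:63157463-63157492, minus strand): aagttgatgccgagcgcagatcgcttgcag
RPLP0 (chr12:120201097-120201126, minus strand): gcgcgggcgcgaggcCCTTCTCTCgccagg
RPS6 (chr9:19380222-19380251, minus strand): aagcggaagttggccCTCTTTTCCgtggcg
RPL41 (chr12:56116618-56116647, plus strand): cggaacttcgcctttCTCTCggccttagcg

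Among the called genes shown, RPS27, RPL34, RPS14 and RPS23 begin with C and a pyrimidine run, while RPL9, RPS27A and RPL26L1 begin with a purine at the RefSeq start, and RPS29 begins with a single T. A start of C followed by at least 4 further C or T bases was present in 43 of the 67 members matched to the RefSeq promoter table, or 64.2%. Of all 27305 promoters in that table, 4.04% had such a start, and of the 10375 that belong to tested genes 5.24% did. The window begins at an annotated start, which was not measured in these cells. A window without such a run therefore does not show that the mRNA lacks the tract. RPL9, for example, has a pyrimidine run a few bases after its annotated start. Members with such a start had a median log2 ratio of high over low uptake (the fitted log2 fold change) of -0.17 over 42 tested genes, and members without it -0.22 over 23 tested genes. Over all tested genes in the table the medians stood in the other order, at -0.05 with such a start and 0.00 without it, and so did those of the assembly factors (-0.23 and -0.14), translation factors (-0.12 and -0.09) and small nucleolar RNA host genes (-0.45 and -0.40) described below. None of these differences was tested.

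The 6 libraries held 13712263 to 40742857 counts on genes. Markers of the mesenchymal state usual for U87 were detected for 6 of 6 genes, led by VIM at a mean of 4866 FPKM (fragments scaled to gene length and library size). Astrocyte and oligodendrocyte markers averaged at most 0.478 FPKM, with 2 of 7 at 0, epithelial markers at most 0.696, endothelial markers at most 0.882, and 2 of 3 erythroid markers were at 0. Summed over each list, the U87 markers ranged over 7491 to 8161 FPKM in high-uptake cells and 6394 to 6861 FPKM in low-uptake cells, and 4 neuron markers over 12.8 to 16.1 FPKM in high-uptake cells and 8.58 to 10.5 FPKM in low-uptake cells. Endothelial markers summed to 0.975 to 1.05 FPKM in high-uptake cells and 1.201 to 1.342 FPKM in low-uptake cells, while the sums of 6 immune markers, up to 150.0 FPKM in high-uptake cells and 153.0 FPKM in low-uptake cells, overlapped. Most of the immune sum came from 1 gene, which averaged 140.2 FPKM, and 1 of the 6 was at 0. The part of these markers in the results below was not tested. Across all 14598 tested genes, edgeR's quasi-likelihood test with Benjamini-Hochberg adjustment at 0.05 called 626, of which 442 were higher and 184 lower in high-uptake cells. TMM scaling factors lay between 0.983 and 1.02 over the 6 libraries.

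Ribosomal protein genes took a smaller share of the RNA in high-uptake cells. Their share of all gene counts was 3.27, 3.25 and 3.04% in high-uptake replicates 2, 3 and 4, against 3.68, 3.69 and 3.65% in the low-uptake replicates. Every high-uptake library lay below every low-uptake library, and the low-uptake libraries lay close together. Over all genes, low-uptake replicates 3 and 4 were nearer to each other than any other pair within a group. The chi-square of their counts was 2.44 per degree of freedom, against 12.2 to 20.8 for the other pairs. Whether these libraries are independent was not tested, so the small low-uptake SD may understate the spread between cultures. The means were 3.19% ± 0.127 in high-uptake cells and 3.67% ± 0.0162 in low-uptake cells (SD, n = 3 each), a difference of -0.486 percentage points and a ratio of 0.868. In such bulk RNA, fewer cells with high levels and less RNA in each cell cannot be told apart.

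Both subunits held a smaller share in high-uptake cells. Large-subunit genes held 2.10% ± 0.0867 of counts in high-uptake cells and 2.42% ± 0.0147 in low-uptake cells. Small-subunit genes held 1.08% ± 0.0408 of counts in high-uptake cells and 1.25% ± 0.00235 in low-uptake cells (SD, n = 3 each). Neither subunit's groups overlapped. The ratio of large-subunit to small-subunit counts was 1.94, 1.96 and 1.93 in high-uptake cells and 1.95, 1.95 and 1.93 in low-uptake cells. These ranges overlapped, and the mean difference of 0.0022 was smaller than the SD of either group. On the per-length FPKM scale, which weights short genes more, the members held 8.74% ± 0.364 of the summed FPKM in high-uptake cells and 9.72% ± 0.0779 in low-uptake cells (SD, n = 3 each), again without overlap.

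**Figure D1:**
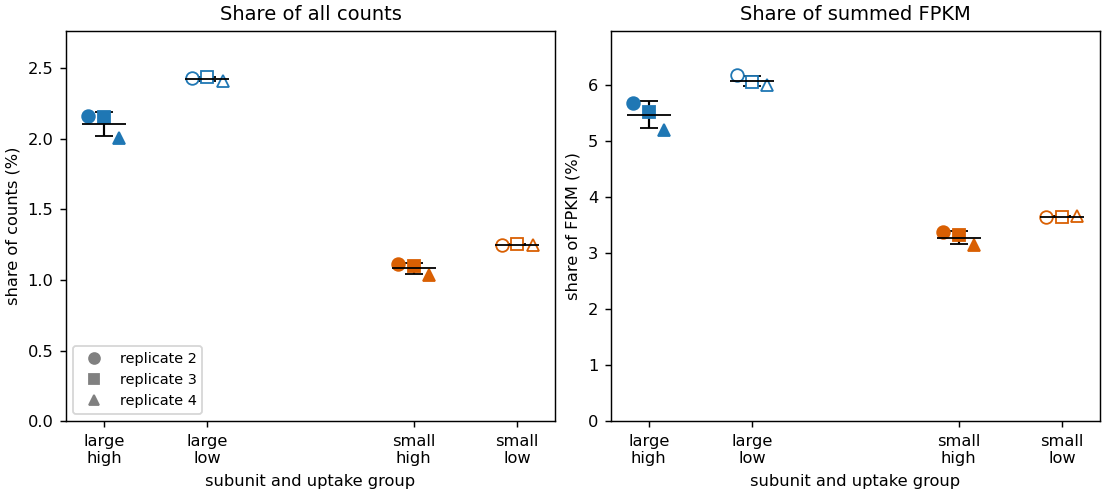
Share of all gene counts (left, in %) and of summed FPKM (right, in %) held by large-subunit (blue) and small-subunit (orange) genes in each library, with the mean and SD of 3 libraries per group as bars; filled symbols are high uptake and open symbols low uptake. Large-subunit genes held 2.10% of counts in high-uptake cells and 2.42% in low-uptake cells, and in both panels the high-uptake libraries lie below the low-uptake ones.

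The difference ran through the members as small differences in one direction. Of the 81 members that passed the filter on low counts, 80 had a log2 ratio below 0, or 98.8%, beside 50.7% of all tested genes. Their median log2 ratio was -0.18, a fold of 0.885, with quartiles of -0.25 and -0.13, while the median over all tested genes was -0.00. The large-subunit median was -0.18 over 50 genes and the small-subunit median -0.17 over 31. CPM (counts scaled to library size) groups did not overlap, with high uptake lower, for 44 members, or 54.3%, beside 11.4% of all tested genes (24.4% in either direction), and no member was higher without overlap. RPL3L, a muscle paralogue of RPL3, and RPL10L, a testis paralogue of RPL10, had 0 counts in every library and were not tested. RPS18 was not tested either, with 1 count in low-uptake replicate 3 and 0 in the other 5 libraries. It encodes a core protein of the small subunit, so that its counts near 0 cannot be read as absence of the mRNA.

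The single members that passed the test were all lower in high-uptake cells. By edgeR's quasi-likelihood test, 10 of 81 members were called lower, or 12.3%, beside 1.26% of all tested genes (4.29% in either direction). These were RPL37, RPL9, RPL34, RPL26L1 and RPL23 of the large subunit and RPS29, RPS27, RPS14, RPS23 and RPS27A of the small subunit. No member was called higher by edgeR, DESeq2 or limma, beside 3.03% of all tested genes by edgeR, and none was higher at an unadjusted p under 0.05 in edgeR's test. Lower at an unadjusted p under 0.05 were 39 members, beside 7.97% of all tested genes. DESeq2 called 15 members lower, beside 1.99% of all genes, and limma 10, beside 1.22%, and both sets held all 10 of edgeR's genes.

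The number of members called depended on single libraries, as did that of all genes. It was 3 without high-uptake replicate 2 (RPL23, RPL34 and RPL9), 14 without high-uptake replicate 3 and 6 without low-uptake replicate 2, where 0.499, 1.66 and 1.15% of all genes tested in those fits were called lower. It was 0 by edgeR without high-uptake replicate 4, without low-uptake replicate 3 or without low-uptake replicate 4, where 0.763, 0.441 and 0.334% of all genes tested were called lower. In these last 3 fits 19, 26 and 23 members were lower at an unadjusted p under 0.05, beside 6.75, 5.58 and 5.03% of all genes tested. Across these 6 fits the median log2 ratio of the members stayed between -0.22 and -0.13, and 77 to 81 of the 81 members were below 0.

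High-uptake replicate 4 was the lowest library for the members. Set against each gene's mean over all 6 libraries, the median member deviated by -0.04, -0.08 and -0.18 on the log2 CPM scale in high-uptake replicates 2, 3 and 4, and by 0.10, 0.10 and 0.09 in low-uptake replicates 2, 3 and 4. High-uptake replicate 4 held the lowest value of 51 of the 81 members, high-uptake replicate 3 of 19 and high-uptake replicate 2 of 10. The highest value of 78 members lay in a low-uptake library.

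**Figure D2:**
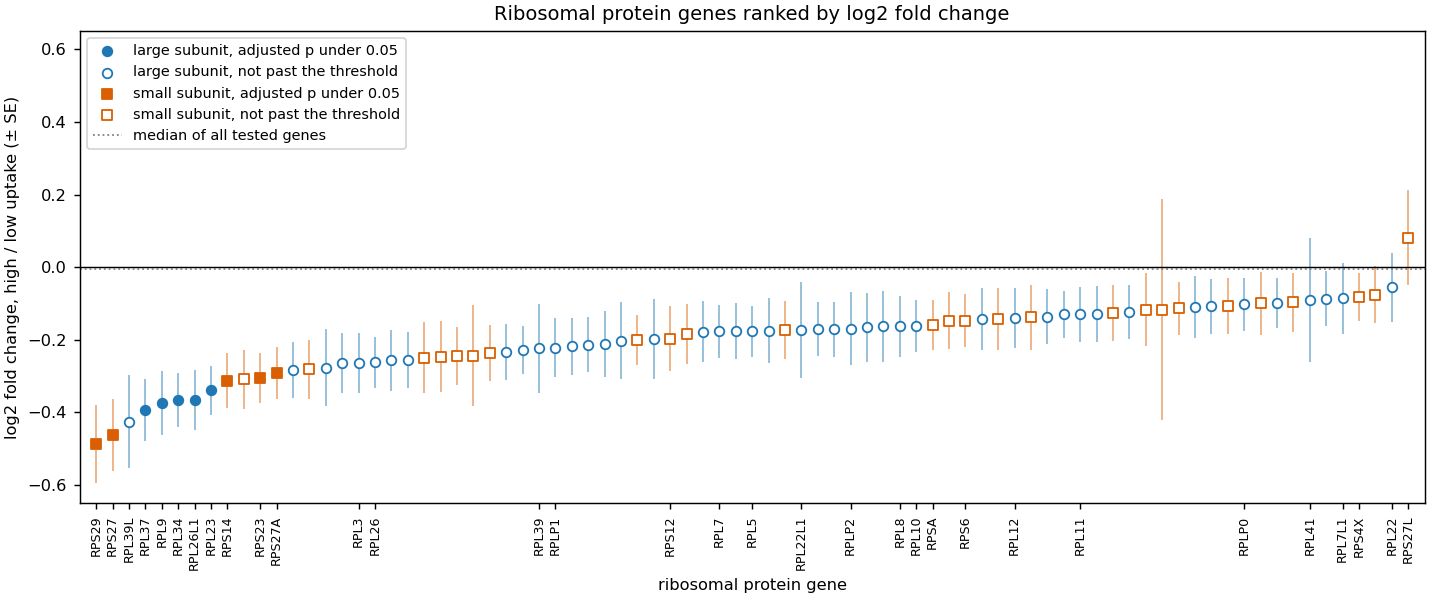
Log2 fold change (high over low uptake) of each of the 81 tested ribosomal protein genes, ranked, with its standard error as a vertical line; blue circles are large-subunit and orange squares small-subunit genes, and filled symbols have an adjusted p under 0.05. Labels on the axis name most of the members described in the text. Values run between -0.49 for RPS29 and 0.08 for RPS27L, and 80 of 81 lie below 0.

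RPS29 and RPS27, both small zinc-binding proteins of the small subunit, had the lowest fold changes. RPS29 had 18.1, 16.5 and 17.8 CPM in high-uptake replicates 2, 3 and 4 and 21.8, 27.2 and 24.9 CPM in low-uptake replicates 2, 3 and 4. All 3 high-uptake values were below all 3 low-uptake values. RPS29 fell by 0.49 on the log2 scale (SE 0.107, adjusted p = 0.0281), with 17.5 ± 0.870 CPM in high-uptake cells and 24.6 ± 2.74 CPM in low-uptake cells (SD, n = 3 each).

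RPS27 showed a similar decrease at a higher level. It had 163.6, 189.8 and 152.6 CPM in the high-uptake libraries and 208.8, 237.3 and 250.8 CPM in the low-uptake libraries, in the same order of replicates. The groups did not overlap, although both spread more widely than for most called genes. RPS27 fell by 0.46 on the log2 scale (SE 0.0991, adjusted p = 0.0251).

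RPS14 and RPS23 lie on the path of the messenger RNA through the small subunit, RPS14 at the platform and RPS23 in the decoding centre. RPS14, whose loss of one copy is a cause of the anaemia of the 5q- syndrome, had 461.6, 450.8 and 410.0 CPM in high-uptake cells and 534.6, 581.2 and 525.9 CPM in low-uptake cells. RPS23 had 369.7, 348.2 and 360.1 CPM in high-uptake cells and 458.9, 437.2 and 435.2 CPM in low-uptake cells. Neither gene's groups overlapped. RPS14 fell by 0.31 (SE 0.0766, adjusted p = 0.0441) and RPS23 fell by 0.30 (SE 0.0686, adjusted p = 0.0309) on the log2 scale. Of the 9 genes of the messenger RNA entry and path, these 2 were called lower, beside 1.26% of all tested genes. All 9 were below 0, with a median log2 ratio of -0.17.

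RPSA, the laminin receptor precursor that also sits in the small subunit, belongs to the same group and was not called. It averaged 783.7 ± 37.8 CPM in high-uptake cells and 875.4 ± 11.9 CPM in low-uptake cells (SD, n = 3 each), without overlap, and its log2 ratio was -0.16 (SE 0.0686, adjusted p = 0.243).

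RPS27A, made as a fusion of ubiquitin with a small-subunit protein, had 378.6, 396.2 and 416.6 CPM in high-uptake cells and 471.4, 480.6 and 506.4 CPM in low-uptake cells. The lowest low-uptake library lay above the highest high-uptake library. RPS27A fell by 0.29 on the log2 scale (SE 0.0717, adjusted p = 0.0446).

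The other small-subunit proteins included 2 called genes, RPS29 and RPS27, among 20 tested, beside 1.26% of all tested genes called lower. All 20 were below 0 with a median log2 ratio of -0.16. RPS3A was just outside the threshold, with a log2 ratio of -0.31 and an adjusted p of 0.0578. RPS6, the substrate of S6 kinase, averaged 498.3 ± 19.7 CPM in high-uptake cells and 551.7 ± 29.3 CPM in low-uptake cells (SD, n = 3 each), with a log2 ratio of -0.15 (SE 0.0724, adjusted p = 0.314). RPS12, which ranked second by FPKM, averaged 610.6 ± 36.2 CPM in high-uptake cells and 699.6 ± 78.7 CPM in low-uptake cells, with a log2 ratio of -0.20 (adjusted p = 0.274) and overlapping groups. RPS4X, encoded on the X chromosome, was among the members with values nearest to 0, at a log2 ratio of -0.08 (adjusted p = 0.557), although its groups did not overlap.

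In the large subunit, RPL23, RPL34, RPL37 and RPL9 were called among 31 proteins outside the stalk, the 5S particle, the exit tunnel and the paralogues. That is 12.9%, beside 1.26% of all tested genes called lower. RPL23, which faces the small subunit and is also known to bind MDM2, had 331.7, 321.4 and 312.0 CPM in high-uptake cells and 410.5, 412.6 and 397.7 CPM in low-uptake cells. The groups lay far apart relative to their spread. RPL23 fell by 0.34 on the log2 scale (SE 0.0682) and had the smallest adjusted p of all members, at 0.0193.

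RPL34 had 132.9, 126.3 and 120.3 CPM in high-uptake cells and 161.7, 161.8 and 165.8 CPM in low-uptake cells, and it fell by 0.37 on the log2 scale (SE 0.0749, adjusted p = 0.0202). RPL37, a zinc-binding protein, had 130.5, 136.4 and 115.7 CPM in high-uptake cells and 157.6, 171.4 and 173.1 CPM in low-uptake cells. It fell by 0.39 (SE 0.0855, adjusted p = 0.0270). The values of neither gene overlapped between the groups.

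RPL9, near the binding site of the elongation factors, had 334.5, 291.4 and 307.9 CPM in high-uptake cells and 447.6, 379.1 and 383.7 CPM in low-uptake cells. Replicate 2 was the highest library of each group, and the groups did not overlap. RPL9 fell by 0.37 on the log2 scale (SE 0.0873, adjusted p = 0.0364). RPL3 and RPL8, abundant proteins near the peptidyl transferase centre, were not called. RPL3 averaged 1565 ± 148 CPM in high-uptake cells and 1879 ± 111 CPM in low-uptake cells without overlap, with a log2 ratio of -0.26 (adjusted p = 0.107). RPL8 averaged 1074 ± 83.8 CPM in high-uptake cells and 1202 ± 96.2 CPM in low-uptake cells with overlap, with a log2 ratio of -0.16 (adjusted p = 0.339).

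RPL41, whose protein is a very short basic peptide, was the most variable of the abundant members. It had 420.7, 274.1 and 252.8 CPM in high-uptake cells and 382.4, 315.0 and 313.0 CPM in low-uptake cells. High-uptake replicate 2 was the highest library and the groups overlapped. Its log2 ratio was -0.09 (SE 0.171, adjusted p = 0.837), and it was 0.05 without high-uptake replicate 4 and 0.01 without low-uptake replicate 2.

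**Figure D3:**
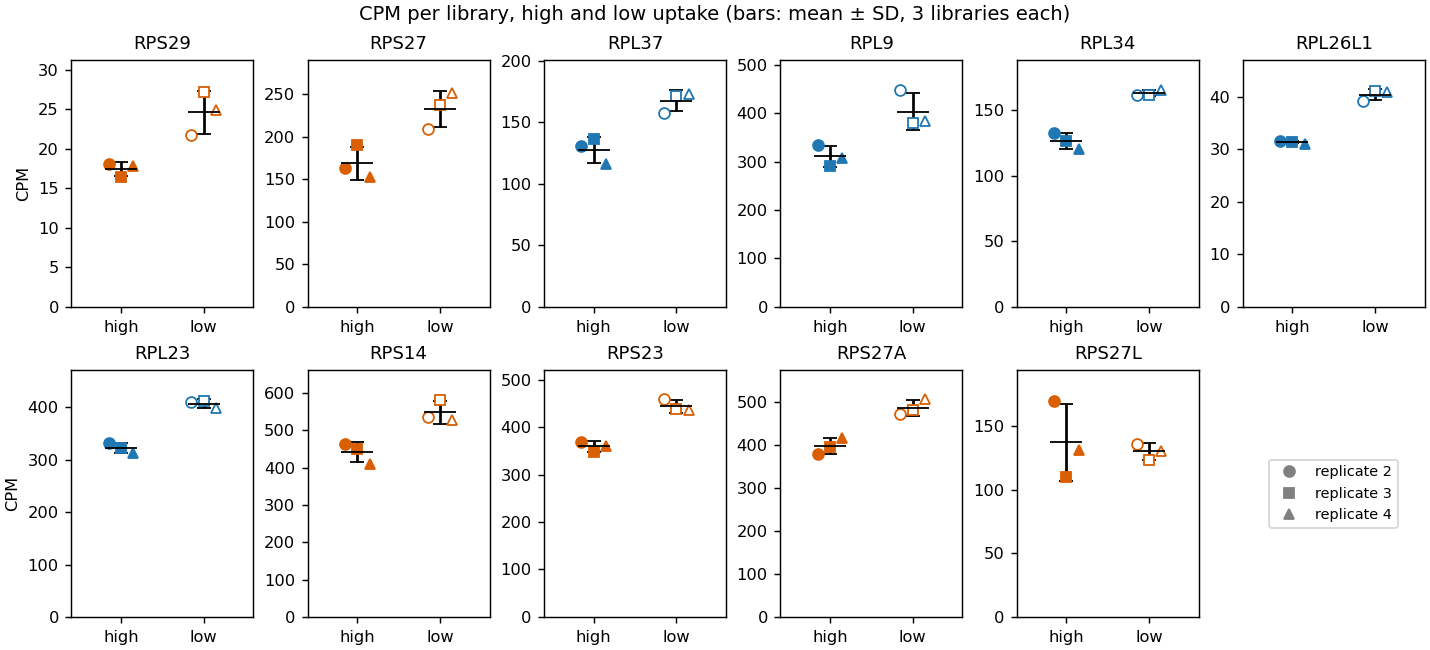
CPM in each library for the 10 genes lower in high-uptake cells and for RPS27L, the one tested member with a fold change above 0; blue panels are large-subunit and orange panels small-subunit genes, filled symbols are high uptake, open symbols low uptake, and bars give the mean and SD of 3 libraries. The groups of the 10 genes do not overlap, while those of RPS27L do, with 170.2 CPM in high-uptake replicate 2.

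The stalk proteins, which recruit and activate the translation factors, showed no call. RPLP0 averaged 2133 ± 154 CPM in high-uptake cells and 2289 ± 71.7 CPM in low-uptake cells, with a log2 ratio of -0.10 (adjusted p = 0.504). RPLP1 averaged 602.6 ± 48.3 CPM in high-uptake cells and 702.8 ± 42.8 CPM in low-uptake cells, with a log2 ratio of -0.22 (adjusted p = 0.167). All 4 stalk genes, RPLP2 and RPL12 included, were below 0, with a median of -0.15. None of the 4 was called by edgeR, DESeq2 or limma. In edgeR's test 1 was lower at an unadjusted p under 0.05, beside 7.97% of all tested genes.

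RPL5 and RPL11, which form a particle with 5S ribosomal RNA and bind MDM2 when assembly is disturbed, were not called by edgeR, DESeq2 or limma. In edgeR's test 1 of them was lower at an unadjusted p under 0.05, beside 7.97% of all tested genes. RPL5 averaged 356.1 ± 16.3 CPM in high-uptake cells and 402.5 ± 6.20 CPM in low-uptake cells without overlap, with a log2 ratio of -0.18 (adjusted p = 0.203). RPL11 averaged 450.7 ± 31.6 CPM in high-uptake cells and 493.1 ± 20.05 CPM in low-uptake cells with overlap, with a log2 ratio of -0.13 (adjusted p = 0.402). The 9 proteins of the peptide exit tunnel and its rim had the lowest median of the groups with at least 4 tested genes, -0.22, and all 9 were below 0. edgeR and limma called none of these 9 and DESeq2 called 2, beside 1.99% of all genes called lower by DESeq2. In edgeR's test 6 were lower at an unadjusted p under 0.05, beside 7.97% of all tested genes. RPL26 came closest, with 369.3 ± 13.0 CPM in high-uptake cells and 442.7 ± 17.6 CPM in low-uptake cells (SD, n = 3 each), a log2 ratio of -0.26 and an adjusted p of 0.0623.

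The paralogues did not share one pattern. Of the 7 listed, 5 were tested, 1 was called lower, beside 1.26% of all tested genes, and 4 were below 0. RPL26L1, the paralogue of RPL26, had 31.6, 31.4 and 31.1 CPM in high-uptake cells and 39.2, 41.1 and 41.0 CPM in low-uptake cells. The high-uptake values were almost identical to each other and all lower than the low-uptake ones. RPL26L1 fell by 0.37 on the log2 scale (SE 0.0821, adjusted p = 0.0304). RPL26 missed the threshold with a log2 ratio of -0.26, and the difference between these paralogues was not tested.

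RPL39L, the paralogue of the exit-tunnel protein RPL39, was low in these cells. It had 222, 85 and 213 counts in high-uptake cells and 325, 190 and 147 counts in the low-uptake libraries. In CPM its groups did not overlap, and its log2 ratio was -0.42 (SE 0.129), with an adjusted p of 0.0953. RPL39 itself averaged 18.6 ± 2.57 CPM in high-uptake cells and 21.6 ± 2.31 CPM in low-uptake cells, with overlap and a log2 ratio of -0.22 (adjusted p = 0.366).

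RPS27L, a p53-responsive paralogue of RPS27, was the one tested member with a fold change above 0. It had 170.2, 110.1 and 131.7 CPM in high-uptake cells and 136.2, 123.6 and 130.7 CPM in low-uptake cells. The high-uptake values lay on both sides of the low-uptake ones. Its log2 ratio was 0.08 (SE 0.131, adjusted p = 0.808), and without high-uptake replicate 2 it was -0.10. RPS27 was called lower and RPS27L was not called, and the difference between them was not tested.

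RPL22L1 and RPL22, of which the paralogue is known in mouse to be repressed by RPL22, were both uncalled. RPL22L1 averaged 101.9 ± 17.9 CPM in high-uptake cells and 115.0 ± 16.4 CPM in low-uptake cells, with a log2 ratio of -0.17 (adjusted p = 0.537). RPL22 averaged 81.1 ± 7.72 CPM in high-uptake cells and 84.4 ± 6.38 CPM in low-uptake cells, with a log2 ratio of -0.06 (adjusted p = 0.819). RPL7L1 had a log2 ratio of -0.09 (adjusted p = 0.704) and RPL7 of -0.18 (adjusted p = 0.223). RPL10, whose paralogue RPL10L was at 0, had a log2 ratio of -0.16 (adjusted p = 0.256).

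Per length, the members' levels spread widely. By mean FPKM over the 6 libraries the highest were RPLP0 at 1749, RPS12 at 1303, RPL3 at 1288, RPLP1 at 1275 and RPL8 at 1167 FPKM. The neighbours RPS12, RPL3 and RPLP1 were not separated by their spread, for example with RPS12 at 1203 ± 62.5 FPKM in high-uptake cells and 1403 ± 151 FPKM in low-uptake cells and RPL3 at 1159 ± 102 FPKM in high-uptake cells and 1416 ± 74.5 FPKM in low-uptake cells (SD, n = 3 each). Members with low levels included RPL39L at 10.1, RPS29 at 13.9 and RPL36A at 27.4 FPKM. The median over the members of a library was 361 ± 16.5 FPKM in high-uptake cells and 420.4 ± 10.1 FPKM in low-uptake cells (SD, n = 3 each), without overlap.

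In 4 of 5 pairs with a detected paralogue, the paralogue was the lower gene per length. RPL26 averaged 698 FPKM and RPL26L1 50.6 FPKM, RPL7 765 FPKM and RPL7L1 43.7 FPKM, RPL39 48.0 FPKM and RPL39L 10.1 FPKM, and RPS27 572 FPKM and RPS27L 123 FPKM. RPL22L1, at 55.4 FPKM, stood above RPL22, at 39.7 FPKM. These levels rest on the gene-model lengths behind the deposited FPKM values, which ran between 351 bp for RPS27 and 5183 bp for RPL28. A long gene model lowers the FPKM of a gene whose usual mRNA is short.

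Some members share reads with copies, which limits their values. RPL21 and the pseudogene RPL21P28 had identical counts in all 6 libraries, 19747 in all for each. RPL13A had 117336 counts and RPL13AP5 112092. The pseudogene RPS18P9 had 35 to 124 counts in a library while RPS18 had at most 1. Symbols that join a member to another gene also held many counts. In high-uptake replicate 2, RPL17-C18orf32 had 17875 counts and RPL17 16861, and RPS10-NUDT3 had 7184 and RPS10 6706. RPL36A-HNRNPH2 had 6843 counts there and RPL36A 3112. How reads with several matches, or reads over overlapping symbols, were counted is not given in the sources used here. The part of such counting in these values was not tested.

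The members are short genes, and short genes as a class had lower medians in high-uptake cells. Below a gene-model length of 750 bp, the 38 members had a median log2 ratio of -0.20, and 694 other genes had -0.10. From 750 to 1500 bp, 27 members had -0.16 and 1580 other genes -0.07. Above 1500 bp, 16 members had -0.17 and 12243 other genes 0.01. In each length class the members' median was the lower one, and the members' own medians differed little between classes. The classes rest on gene-model length, so the class above 1500 bp can hold members whose usual mRNA is short. Across the 81 members, log2 ratio and log2 length had a Spearman rho of 0.20 and a Pearson r of 0.16, and across all 14598 tested genes a rho of 0.22 and an r of 0.15. These are descriptions over genes of the same 6 libraries, not over replicates.

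With the length trend over all genes removed, the members' median log2 ratio was -0.10 and 77 of 81 were below 0. RPS29, RPL37, RPL34 and RPS23 were then still called lower, beside 0.993% of all tested genes, and the other 6 genes had adjusted p-values up to 0.117. The gene models of RPS23, RPL37 and RPS29 had 3314, 1570 and 1518 bp and that of RPL34 had 1014 bp. Those of the other 6 had at most 1373 bp. A gene whose usual mRNA is shorter than its gene model was fitted as a longer gene, so these 4 calls do not set length aside. With the GC trend removed instead, the median was -0.18 and 40 members were called lower, beside 8.92% of all genes tested in that fit. With both trends removed together, a fit added after the data had been seen, the median was -0.10 and 16 were called lower, beside 8.69%.

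**Figure D4:**
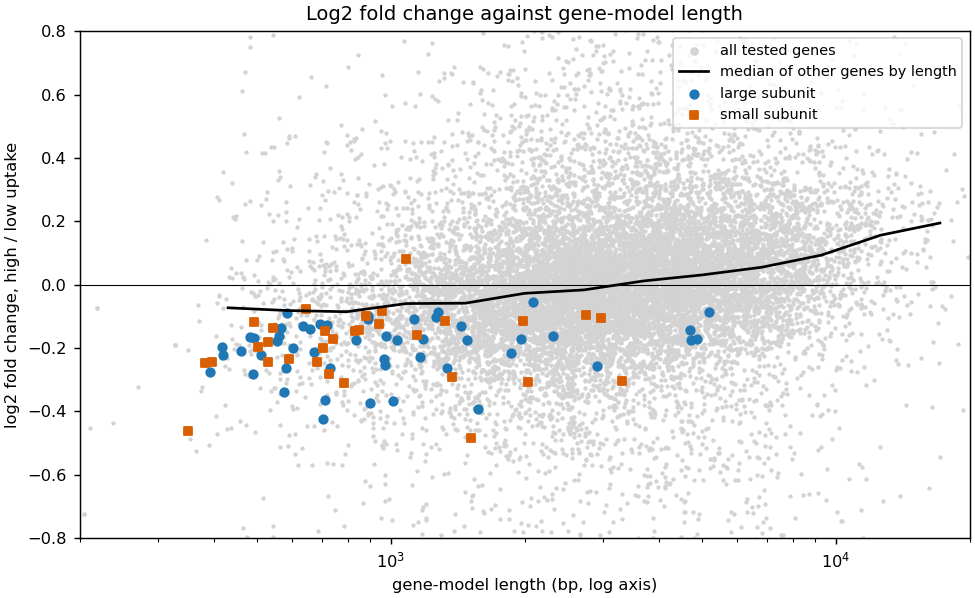
Log2 fold change (high over low uptake) against gene-model length in bp on a log axis, with all tested genes in grey, large-subunit genes as blue circles, small-subunit genes as orange squares and the running median of the other genes as a line; points outside the axes are not drawn. Short genes lie below 0 as a class, with a median of -0.10 below 750 bp, and the members of that class lie lower, with a median of -0.20.

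Genes around the ribosome gave the setting for these values. The lists were chosen by function with earlier results of these data known, and their counts are descriptions. Ribosomal protein genes outside the symbol rule had the same sign in 4 of 4 genes, with no call by edgeR, DESeq2 or limma. In edgeR's test 1 was lower at an unadjusted p under 0.05, beside 7.97% of all tested genes. Among these, FAU, which encodes a ubiquitin-like fusion with a small-subunit protein, averaged 189.1 ± 18.5 CPM in high-uptake cells and 214.5 ± 11.9 CPM in low-uptake cells, with a log2 ratio of -0.18 (adjusted p = 0.297). GNB2L1, the small-subunit scaffold RACK1, averaged 911.6 ± 77.5 CPM in high-uptake cells and 1087 ± 61.5 CPM in low-uptake cells without overlap, with a log2 ratio of -0.25 (adjusted p = 0.111).

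Ribosome assembly factors and RNA polymerase I subunits lay below 0 for 114 of 125 tested genes, with a median log2 ratio of -0.14. In this list edgeR called 2 genes lower, or 1.6%, which is near the 1.26% of all tested genes. NOP16, a nucleolar assembly protein, had 34.1, 38.8 and 37.2 CPM in high-uptake cells and 46.4, 49.5 and 48.6 CPM in low-uptake cells, and it fell by 0.40 on the log2 scale (adjusted p = 0.0283). WDR43, a factor of early small-subunit assembly, fell by 0.40 as well (adjusted p = 0.0435). The groups of neither gene overlapped.

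Non-coding host genes of small nucleolar RNAs, several of which carry a pyrimidine tract like the ribosomal protein genes, had a lower median than the members. All 14 tested were below 0, with a median log2 ratio of -0.45, and 5 were called lower, or 35.7%, beside 1.26% of all tested genes. SNHG8 had 18.9, 19.7 and 19.0 CPM in high-uptake cells and 26.8, 29.4 and 29.3 CPM in low-uptake cells, without overlap. SNHG8 fell by 0.57 on the log2 scale (SE 0.0908, adjusted p = 0.00602), and SNHG7 fell by 0.46 (SE 0.0878, adjusted p = 0.0156). GAS5, ZFAS1 and SNHG1 were also lower.

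Translation factors lay nearer to 0 than the members, with 39 of 52 below 0 and a median log2 ratio of -0.09. One, or 1.92% beside 1.26% of all tested genes, passed the test as lower. This was EEF1A2, the elongation factor form of muscle and neurons, which averaged 3.04 ± 0.834 CPM in high-uptake cells and 7.89 ± 0.809 CPM in low-uptake cells (SD, n = 3 each). It fell by 1.42 on the log2 scale (SE 0.194, adjusted p = 0.00265). EIF4A1, the abundant RNA helicase of initiation, was just outside the threshold with a log2 ratio of -0.28 (adjusted p = 0.0511). Of 11 other mRNAs known to carry the pyrimidine tract, 10 were below 0 with a median of -0.07, and edgeR, DESeq2 and limma called none. In edgeR's test 3 had an unadjusted p under 0.05 in either direction, beside 7.97% of all tested genes for lower alone. NPM1, a nucleolar chaperone, had a log2 ratio of -0.28 (adjusted p = 0.114) and BTF3, a nascent-chain binding protein, of -0.24 (adjusted p = 0.0927).

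Regulators of ribosomal protein synthesis did not share the members' direction. Of 37 tested, 12 were below 0 and the median log2 ratio was 0.04. edgeR and limma called none, beside 4.29 and 4.14% of all tested genes, and DESeq2 called 1, beside 5.99%. In edgeR's test 9 had an unadjusted p under 0.05 in either direction. Over all tested genes that share was counted only for lower genes. MYC, which drives ribosome production, averaged 136.9 ± 10.2 CPM in high-uptake cells and 140.2 ± 1.27 CPM in low-uptake cells, with a log2 ratio of -0.04 (SE 0.0800, adjusted p = 0.871). MXD4, a MAX partner that opposes MYC, had 53.9, 55.5 and 48.1 CPM in high-uptake cells and 32.7, 42.1 and 42.2 CPM in low-uptake cells. Its groups did not overlap, and its log2 ratio was 0.43 (SE 0.113, adjusted p = 0.0572). SESN1, a stress-induced inhibitor of mTORC1, had a log2 ratio of 0.39 (adjusted p = 0.0952).

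Cell cycle markers included genes that rose in high-uptake cells. The median log2 ratio of 14 tested markers was 0.10, with 5 below 0 and 2 called higher by edgeR, or 14.3%, beside 3.03% of all tested genes. TOP2A, the topoisomerase of dividing cells, rose by 0.46 on the log2 scale (SE 0.0874, adjusted p = 0.0152), with 398.3 ± 39.0 CPM in high-uptake cells and 290.3 ± 18.7 CPM in low-uptake cells (SD, n = 3 each). TYMS, thymidylate synthase, rose by 0.35 (SE 0.0811, adjusted p = 0.0369). The part of the cell cycle in the members' values was not tested.

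**Figure D5:**
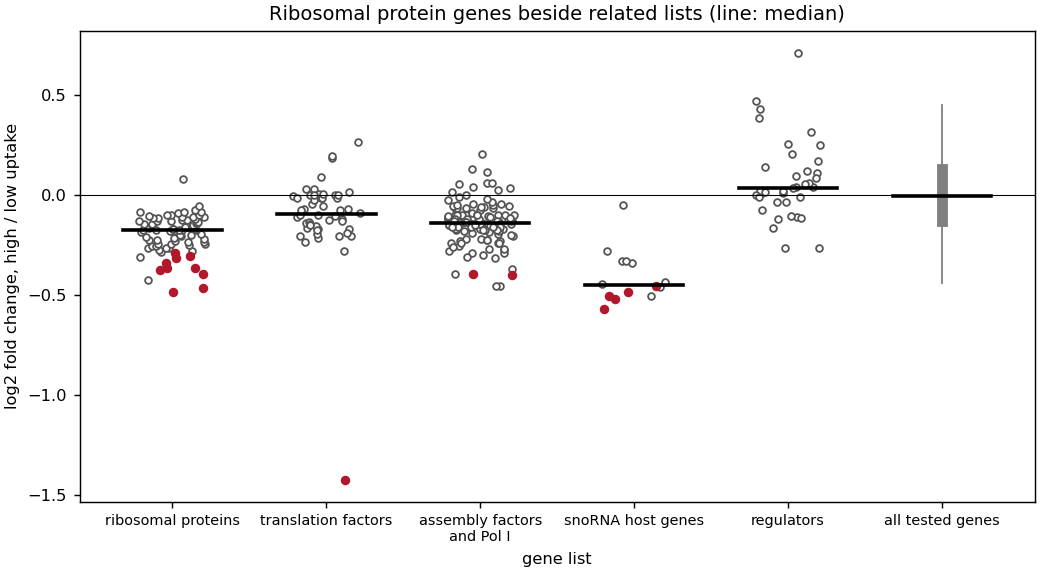
Log2 fold change (high over low uptake) of each tested gene in the ribosomal protein genes and related lists, with a black line at each list's median and red points for genes with an adjusted p under 0.05; for all tested genes the thick grey bar spans the quartiles and the thin line the 5th to 95th percentiles. Medians are -0.18 for ribosomal proteins, -0.09 for translation factors, -0.14 for assembly factors, -0.45 for snoRNA host genes, 0.04 for regulators and -0.00 for all tested genes.

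The authors' deposited table of 2305 gene symbols, which gives neither direction nor values, held 40 of the 84 members, or 47.6%, beside 8.98% of all symbols. The 8.98% is over all 25680 symbols, of which 14598 were tested here. All 10 genes called lower here were among those 40 members of the authors' deposited table. That table belongs to this same series, so the overlap is no independent check of the calls.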

How the data were processed

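RNA was extracted with the RNeasy Micro kit and libraries were made with a directional kit, per the labels' protocols. Trimming, alignment and counting used fastp, STAR and featureCounts on build hg19, as listed in the submitters' processing notes with no version. Which annotation and strand setting were used, and how multiply matching reads were handled, was not stated in those notes or labels. The deposited files give whole read counts for each gene symbol. They also give FPKM values and TPM values, both made by the authors. Counts were tested, FPKM served for levels and to recover gene-model lengths, and TPM was not used.

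Genes passing filterByExpr (minimum count 10, minimum total 15) were scaled by TMM and tested two-sided with edgeR 4.0.16's quasi-likelihood F-test in R 4.3.3, with Benjamini-Hochberg adjustment over all 14598 genes and a threshold of 0.05. DESeq2 1.42.0, limma 3.58.1, other scalings and filters, each library left out, a replicate block and loess removal (span 0.3) of GC and length trends were tried. GC came from GENCODE v29 transcripts and was matched for 92.8% of tested genes. The scripts were tested on simulated data.

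The members and gene lists were chosen with earlier results of these data known. Genes named were all called members, the 5 highest and 5 lowest fold changes, the 5 highest FPKM levels, paralogues with their partners, stalk and 5S proteins, RPSA, RPS6, RPL41 and the 2 smallest p-values of each related list. Some genes that this rule names are not reported here.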

Additional observations from a re-analysis of the deposited data

How the results depend on the processing

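With RLE, upper-quartile or total-count scaling, TMM without the members, no filter, a stricter filter of 50 counts in 3 libraries, limma or DESeq2, between 10 and 15 members were lower, all 10 of the genes called by the reported test among them, and none was higher in any alternative run. Of all genes tested in these runs, 1.22 to 1.99% were called lower. The FPKM share differed by -0.981 percentage points.

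With a replicate block 3176 genes and 52 members were called, with block and GC trend removed 3952 and 65, and with block and length trend removed 2810 and 24 (median of members -0.10, of large-subunit genes -0.11 and of small-subunit genes -0.085). The labels do not state whether same-numbered libraries are paired, and the reported test did not pair them. Deviations of same-numbered libraries correlated by 0.452, 0.304 and 0.0873. Low-uptake replicate 4 correlated better with high-uptake replicate 3 (0.216), while the other libraries correlated best with their own number. These correlations do not decide whether the libraries are paired.

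Removing the GC trend gave 2723 genes and 40 members, and lost RPL37 (adjusted p = 0.0543). Removing the length trend gave 465 genes and 4 members (medians -0.10, -0.11 and -0.092 for members, large and small subunit), and removing both 2513 and 16 (-0.10, -0.10 and -0.095). Of all genes tested, 8.92, 0.993 and 8.69% were called lower with the GC trend, the length trend and both removed. Leaving out both libraries numbered 2 gave 788 genes and 16 members, and lost RPS27A (adjusted p = 0.0617). In that fit 1.89% of all genes tested were called lower.

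Leaving out 1 library at a time gave 232 to 746 genes and 0 to 14 members, medians between -0.22 and -0.13 (large subunit -0.23 to -0.13, small subunit -0.21 to -0.12), a share difference between -0.529 and -0.413 percentage points, and a difference in the large to small ratio between -0.0070 and 0.0074, which was -0.0036 without low-uptake replicate 4. Between 0.334 and 1.66% of all genes tested were called lower in these fits. The sign of RPL22 turned without high-uptake replicate 3 (0.0055) and without low-uptake replicate 2 (0.0066). RPL41 ranged between -0.35 and 0.052 over the leave-outs and was 0.0077 with the length trend removed and 0.019 with both trends removed. RPS27L ranged between -0.10 and 0.21 over the leave-outs and was -0.066 without both libraries numbered 2. The cause was not tested. With 3 libraries a group, some log2 differences larger than their standard error were not called. Examples are those of RPL26 (-0.26, SE 0.0703) and RPSA (-0.16, SE 0.0686).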
